A study of Rattus norvegicus with 8 samples.

Results

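Liver-type genes of glucose and fructose use were followed in rat liver under dietary iron deficiency. The group held 7 genes, Slc2a2, Gckr, Pfkl, Pfkfb1, Pklr, Khk and Pgd, out of 14217 named genes on the array. They were read by 8 probe sets, out of 31042, namely every probe set that the platform annotation paired with exactly 1 of these symbols. Pklr had 2 such probe sets and each other gene had 1. Another 4 probe sets carried Pgd together with 3 further symbols and were left out.

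The livers came from male Sprague-Dawley rats, an outbred strain, at 7 weeks of age. The iron-deficient group, with 4 arrays, ate a diet from which ferric citrate had been left out. The control group, also with 4 arrays, ate the same food with ferric citrate, and both foods followed AIN93G with Avicel instead of cellulose. On day 17 all animals ate for 1.5 h after a schedule of daytime meals, and hemoglobin in the 7 iron-deficient rats stood at 42% of the level in the 6 control rats. The labels do not say which of these rats gave the arrays.

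Glucose enters hepatocytes through the transporter made from Slc2a2. Gckr encodes a nuclear protein that restrains the first step of glucose use, and fructose phosphates act on it. Glycolysis then passes the liver phosphofructokinase (Pfkl), which is stimulated by a sugar phosphate that the enzyme of Pfkfb1 both makes and removes, and ends at the liver pyruvate kinase (Pklr). Fructose enters through ketohexokinase (Khk), which bypasses phosphofructokinase, and Pgd encodes a dehydrogenase of the pentose phosphate pathway that yields NADPH for lipid synthesis. In fed liver several of these genes are raised by carbohydrate, through insulin and the carbohydrate response factor encoded by Mlxipl.

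The promoter of Pklr is shown because it is a well-known site of a carbohydrate response element and because the livers were taken after a meal. RefSeq promoters of build GRCr8 were matched for all 7 genes, and the 250 bases before each annotated start were searched on both strands. A carbohydrate response element, spelled as CANGNG, any 5 bases and CNCNTG with N for any base, and identical to its own reverse complement, occurred in Pklr and in no other of the 7. Among 33469 promoters of the same length, 158 held it, or 0.472%. The E box CACGTG, found in 5.59% of all promoters, and the hypoxia response core ACGTG, found in 16.6% and contained in every CACGTG, were in none of the 7 windows. A match of letters is a description of the sequence and not evidence of binding. The upstream bases of Pklr, on the plus strand at chr2:176841014-176841263, run 5′ to 3′ with the element in capitals, from base 168 to base 152 before the start.
Pklr: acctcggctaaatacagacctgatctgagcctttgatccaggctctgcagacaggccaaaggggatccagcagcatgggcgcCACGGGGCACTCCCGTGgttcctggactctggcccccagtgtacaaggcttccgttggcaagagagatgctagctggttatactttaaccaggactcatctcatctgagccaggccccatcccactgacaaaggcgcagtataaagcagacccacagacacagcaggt

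Each deposited value is a log2 expression value of 1 probe set on 1 array. Differences between arrays are mostly very small in these values, to a degree that varies between probe sets, and the processing behind them is not given. A difference is therefore not read as a fold change, and its size cannot be set against that of another probe set. Differences are therefore also given in units of the within-group SD of the same probe set. The within-group SD of the member probe sets ran from 2.92e-06 for Pfkl to 0.00184 for a Pklr probe set, a factor of 630.2. Genes known to respond to iron were read first. Tfrc, the transferrin receptor, rose by 0.0373 ± 0.00145 (SE, n = 4 per group, limma adjusted p = 0.00120). Hamp, the hepcidin gene, read 6.976, 10.577, 6.988 and 6.928 in iron-deficient livers, against 16.011, 15.991, 15.992 and 16.099 in control livers (limma adjusted p = 0.0735). Its groups did not overlap, although iron-deficient replicate 2 stood apart from the other 3. The 9 measured hepatocyte markers lay above the 75th percentile of all 8 arrays, so the tissue matched its label. In bulk liver, fewer cells of a type and less RNA per cell cannot be told apart.

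All 8 member probe sets lay above the median of every array and 7 of them above its 75th percentile, with Pfkl the exception. None of the 8 passed limma's adjusted threshold of 0.05, where 10 probe sets of the whole table, or 0.0322%, did. None had an unadjusted limma p under 0.05, against 11.4% of all probe sets. In none did the diet groups separate without overlap, against 6.48% of all probe sets. The iron-deficient mean was the higher one for 5 probe sets and the lower one for 3. Standardised differences, the difference over the within-group SD, ran from -1.59 for Khk to 1.09 for Pfkl. Their limma 95% intervals reached as low as -3.21 and as high as 2.80 SD.

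**Figure D1:**
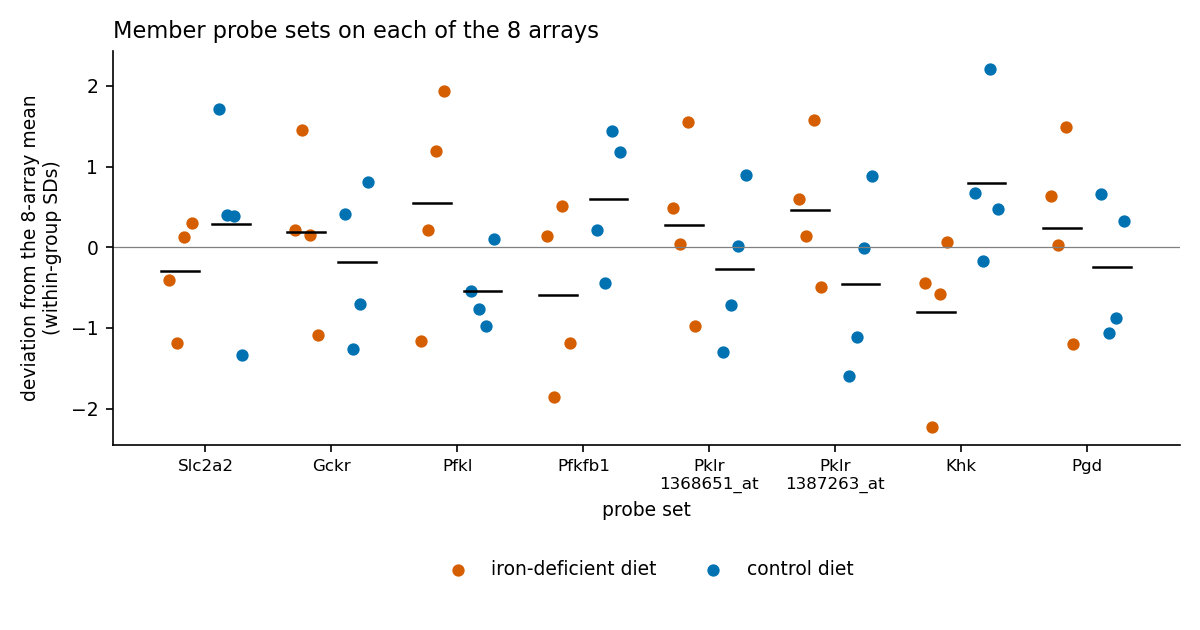
Deviation of each member probe set from its own mean over the 8 arrays, in within-group SDs, with 1 point per array and bars at the group means, iron-deficient diet on the left of each pair and control diet on the right. The groups overlap for every probe set, and Khk has the widest gap between the means, with 3 of 4 iron-deficient livers below all controls.

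Slc2a2, the glucose transporter of hepatocytes (probe set 1387228_at), did not separate the diets. It read 12.907859, 12.907851, 12.907865 and 12.907867 in iron-deficient livers, against 12.907882, 12.907868, 12.907868 and 12.907849 in control livers. The single lowest reading was that of control replicate 4, so the controls spanned the iron-deficient values on both sides. The difference was -6.40e-06 ± 7.48e-06 (SE, n = 4 per group), or -0.58 SD (limma adjusted p = 0.813). It was -1.20e-06 without control replicate 1 and -1.24e-05 without control replicate 4, the extremes on leaving out 1 array. Under quantile normalization it turned to 0.00563 and passed (limma adjusted p = 7.62e-15), but with Hamp taken out beforehand the same procedure gave 0.

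Gckr, whose product restrains the first step of glucose use (1387203_at), differed by 2.84e-05 ± 5.20e-05, or 0.37 SD (limma adjusted p = 0.894). Its values were 10.185930, 10.186025, 10.185925 and 10.185830 in iron-deficient livers, against 10.185945, 10.185816, 10.185860 and 10.185975 in control livers. Both groups spread over nearly the same range. Without iron-deficient replicate 2, which held the highest reading, the difference was -4.16e-06.

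Pfkl, the liver phosphofructokinase (1367743_at), read 8.1022635, 8.1022674, 8.1022703 and 8.1022725 in iron-deficient livers, against 8.1022652, 8.1022646, 8.1022640 and 8.1022671 in control livers. In 3 iron-deficient livers it lay above every control, while iron-deficient replicate 1 gave the lowest value of all. The difference was 3.17e-06 ± 2.09e-06, or 1.09 SD (limma adjusted p = 0.634). Without that replicate it was 4.83e-06, or 2.53 SD, and still did not pass (limma adjusted p = 0.376).

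Pfkfb1, whose enzyme sets the stimulating sugar phosphate of phosphofructokinase (1369467_a_at), had the second-lowest standardised difference. Its readings were 11.01739, 11.01702, 11.01745 and 11.01715 in iron-deficient livers, against 11.01740, 11.01728, 11.01762 and 11.01757 in control livers. Iron-deficient replicates 2 and 4 were below all controls, and the other two lay within their range. The difference was -2.15e-04 ± 1.22e-04, or -1.19 SD (limma adjusted p = 0.570). Leaving out 1 array gave from -2.82e-04, without iron-deficient replicate 3, to -1.39e-04, without iron-deficient replicate 2.

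Pklr, the liver pyruvate kinase, was read by probe sets 1368651_at and 1387263_at. The first gave 11.41783, 11.41714, 11.41946 and 11.41558 in iron-deficient livers, against 11.41511, 11.41598, 11.41711 and 11.41844 in control livers. On the second the values were 10.52623, 10.52539, 10.52802 and 10.52422 in iron-deficient livers, against 10.52219, 10.52307, 10.52510 and 10.52675 in control livers. Iron-deficient replicate 3 was the highest and control replicate 1 the lowest liver on both. The differences were 8.42e-04 ± 0.00103 and 0.00169 ± 0.00124, or 0.55 and 0.92 SD (limma adjusted p = 0.824 and 0.675). On leaving out 1 array the first ran from 1.89e-04, without iron-deficient replicate 3, to 0.00148, without iron-deficient replicate 4. The second ran from 9.92e-04, without control replicate 1, to 0.00251, without control replicate 4. Mlxipl, whose product acts on the Pklr element and which is named here for that reason, differed by 2.53e-06 ± 4.14e-05, or 0.04 SD (limma adjusted p = 0.992).

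Khk, which phosphorylates fructose (1387375_at), came nearest to a difference. It read 11.60869, 11.60857, 11.60868 and 11.60873 in iron-deficient livers, against 11.60877, 11.60871, 11.60887 and 11.60875 in control livers. Only iron-deficient replicate 4 was above the lowest control, which was control replicate 2. The difference was -1.08e-04 ± 4.57e-05, or -1.59 SD, with a limma 95% interval from -3.21 to 0.03 SD (unadjusted p = 0.0530, limma adjusted p = 0.448). On leaving out 1 array it ran from -1.29e-04, without control replicate 2, to -7.54e-05, without iron-deficient replicate 2. The lowest limma adjusted p on leaving out 1 array was 0.447. With the replicate block the unadjusted limma p was 0.0355 and the limma adjusted p 0.513. The difference shrank to -5.70e-05 under median centring and to -2.00e-05 under quantile normalization. It was -9.89e-04 under quantile normalization with Hamp taken out (limma adjusted p = 0.964, 0.695 and 0.169).

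Pgd, the NADPH-yielding dehydrogenase (1371646_at), read 9.96027, 9.95961, 9.96120 and 9.95826 in iron-deficient livers, against 9.96029, 9.95841, 9.95861 and 9.95992 in control livers. The highest and the lowest of the 8 values were both iron-deficient. The difference was 5.25e-04 ± 7.43e-04, or 0.48 SD (limma adjusted p = 0.855). It was 6.83e-05 without iron-deficient replicate 3 and 0.00105 without iron-deficient replicate 4, the extremes on leaving out 1 array.

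**Figure D2:**
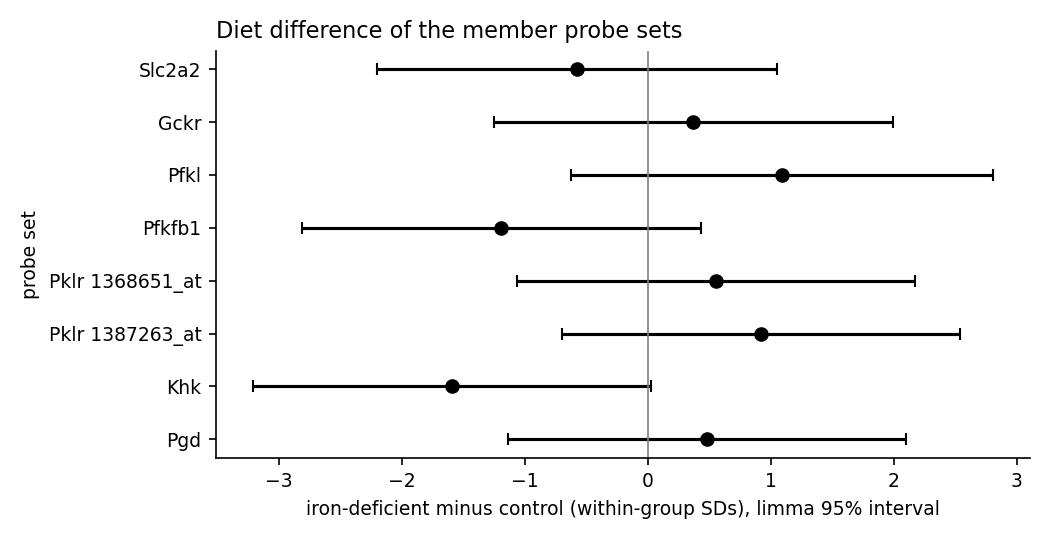
Iron-deficient minus control difference of each member probe set in within-group SDs, with limma 95% intervals (n = 4 arrays per diet). All 8 intervals include 0, and that of Khk ends at 0.03.

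Livers of 1 diet differed among themselves, and for Pklr these differences were shared between probe sets. The 2 probe sets of Pklr ranked the 8 livers almost identically, with a Pearson r of 0.967 and a Spearman rho of 0.976 (exact permutation test, two-sided, adjusted p = 0.00764 and 0.0111 over 28 pairs of member probe sets). Leaving out the 2 livers farthest from the median gave an r of 0.921, and with the diet means removed it was 0.980. Between different genes, 27 pairs gave r from -0.656 to 0.773, and none had an adjusted p under 0.05 by exact permutation test. The highest r was that of Pfkfb1 with Khk, at 0.773 with a rho of 0.619 (exact permutation p = 0.0229 and 0.115, adjusted p = 0.320 and 0.681), and it was 0.691 without the 2 farthest livers. The lowest was that of Slc2a2 with Pklr 1387263_at, at -0.656 with a rho of -0.810 (exact permutation p = 0.0728 and 0.0218, adjusted p = 0.534 and 0.305), but without the 2 farthest livers r was only -0.262.

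Pklr and Pgd were then set against 16 other genes known to be raised by carbohydrate feeding, a comparison of 32 pairs chosen after the spread of Pklr had been seen. Pgd followed Me1, the malic enzyme that also yields NADPH for lipid synthesis. Me1 read 8.6045, 8.5997, 8.6138 and 8.5899 in iron-deficient livers, against 8.6121, 8.5986, 8.6007 and 8.6094 in control livers. In both diets the livers with the highest and the lowest Pgd were also those with the highest and the lowest Me1. The Spearman rho was 0.952 (exact permutation p = 0.00114, adjusted p = 0.0365) and the Pearson r was 0.880 (exact permutation p = 0.00486, adjusted p = 0.0778). Without the 2 livers farthest in Pgd, r was 0.765, and with the diet means removed it was 0.995. The other Me1 probe set gave a rho of 0.881 and an r of 0.759 with Pgd, values given as a description. Genes outside these lists had a higher r with Pgd than Me1 had, such as Phox2a (0.982) and Rasgrp4 (0.971).

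The rho kept its sign but lost its call under quantile normalization with and without the Hamp probe set (adjusted p = 0.155 and 0.108, exact permutation tests) and under median centring (0.697). It also lost the call on leaving out any array except iron-deficient replicate 2, with adjusted p from 0.0444 to 0.216. Pgd also had r of 0.866 with Acacb, the acetyl-CoA carboxylase that limits fat oxidation, and 0.830 with Pnpla3, a lipid droplet protein, with rho of 0.833 and 0.810. Their exact permutation p were 0.00910 and 0.00392 for r and 0.0154 and 0.0218 for rho, and the adjusted p were 0.0971 and 0.0778 for r and 0.232 for both rho. Leaving out the 2 livers farthest in Pgd gave r of 0.765 and 0.720. Both genes lay below the median of every array, as Acacb averaged 7.0638 in each diet and Pnpla3 read 6.948 to 7.061. Pklr was taken here as the mean of its 2 probe sets, each in units of its within-group SD. For Pklr the highest r was 0.782 with Tkfc, the triokinase that follows Khk in fructose use. The rho with Tkfc was 0.738 (exact permutation p = 0.0243 and 0.0458, adjusted p = 0.194 and 0.367), and r was 0.864 without the 2 farthest livers. Of the 16 genes, 13 had a positive r with Pgd and 11 with Pklr.

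**Figure D3:**
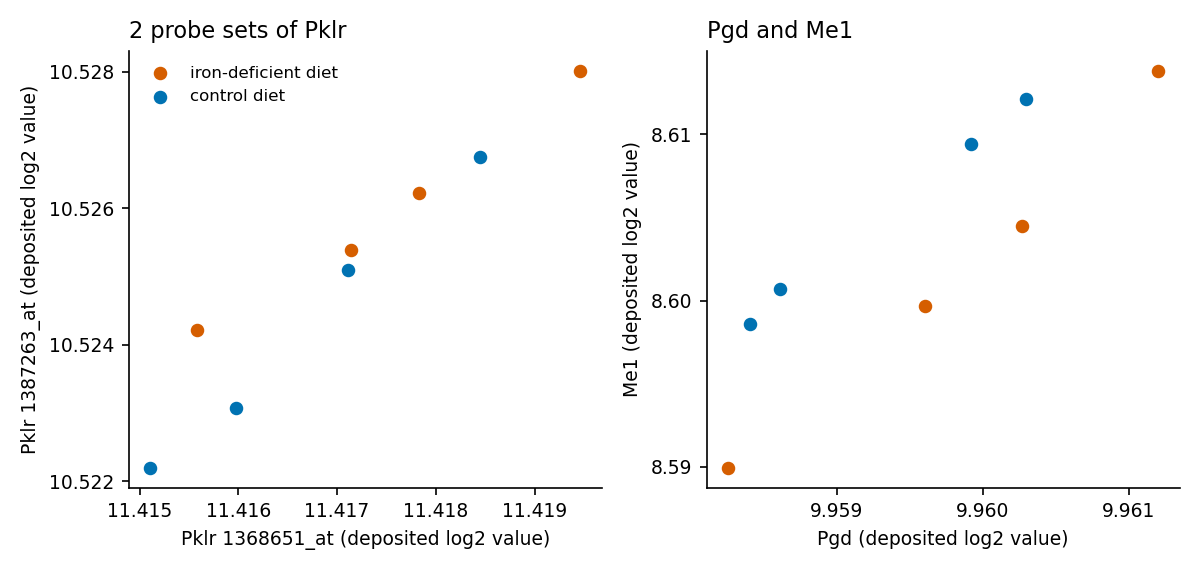
Deposited log2 values of the 2 Pklr probe sets against each other (left) and of Me1 against Pgd (right), with 1 point per liver, iron-deficient in orange and control in blue. The Pklr points lie along 1 line through both diets, and the Me1 points rise with Pgd in each diet.

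The genes with the most similar pattern over the 8 arrays were picked by Pearson r among 14210 other genes, with the highest 2 kept for each member. For Pklr, taken from probe set 1368651_at by the same rule as other genes, they were Fkbp1b (0.988) and Gpr83 (0.964), for Pgd Phox2a (0.982) and Rasgrp4 (0.971), and for Pfkfb1 Ppargc1b (0.982) and Tafa5 (0.967). Khk was followed by Ppp1r16a (0.966) and Sirt3 (0.965), Slc2a2 by Osbpl11 (0.951) and Vipas39 (0.950), Pfkl by Rhoxl (0.963) and Esyt2 (0.962), and Gckr by Hjurp (0.947) and Phgdh (0.922). None of these 14 belongs to the lists of glucose use below, and 8 had mean levels below the median probe set, 3 of them below the 25th percentile (6.55). With so many genes and 8 arrays these correlations are descriptions only.

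Other genes of the same pathways were counted with 1 probe set per gene. None of the 74 listed genes passed over the whole table, where 6 genes, or 0.0422%, did. An unadjusted limma p under 0.05 was found for 14 of the 74, against 13.2% of all genes, and the diet groups did not overlap for 9, against 7.82%. The median standardised difference was -0.11 SD over the 74 genes and -0.07 SD over all genes.

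Among 22 other genes of glycolysis and fructose use, 16 were higher and 6 lower in iron-deficient livers, with a median of 0.59 SD. The diet groups did not overlap for Aldoc, Pgam1 and Slc2a1. Aldoc, the brain-type aldolase, averaged 7.151378 ± 3.88e-06 in livers of the iron-deficient diet and 7.151355 ± 6.58e-06 in those of the control diet (SD, n = 4 per group), a standardised difference of 4.19 (limma adjusted p = 0.127). Under quantile normalization with and without the Hamp probe set its difference turned negative. Pgam1, the phosphoglycerate mutase, averaged 11.871951 ± 1.86e-05 in iron-deficient and 11.871909 ± 4.05e-06 in control livers, a difference of 3.11 SD (limma adjusted p = 0.201). It passed under quantile normalization (limma adjusted p = 8.15e-10), but without the Hamp probe set in it the Pgam1 difference was 0. Slc2a1, a glucose transporter of many cell types, differed by 1.80 SD (limma adjusted p = 0.399) and is named because it did not overlap. Markers of several other liver cell types were also mostly higher, where 47.0% of all genes were higher, and none passed the threshold. Lymphocyte markers were higher for only 2 of 5 and cholangiocyte markers for 3 of 5. Neutrophil markers were higher for 3 of 3 and erythroid markers for 3 of 4, and in these 4 lists no marker separated the diets. Of those of endothelial cells, 6 of 7 were higher and 5 did not overlap, against 7.82% of all genes without overlap. Their mean deviation was 0.763 to 1.88 SD in iron-deficient livers and -1.71 to -1.22 SD in control livers. Stellate cell markers were higher for 6 of 8, and 3 did not overlap. Their mean deviation was 0.556 to 1.23 SD in iron-deficient livers and -1.07 to -0.449 SD in control livers. Macrophage markers were higher for 7 of 7, and 2 did not overlap. The mean deviation of macrophage markers was -0.415 to 1.26 SD in iron-deficient livers and -1.49 to -0.122 SD in control livers. Hepatocyte markers were higher for 5 of 9, and 2 did not overlap, 1 of them higher and 1 lower. The part of these cell types in the values of Aldoc, Pgam1 and Slc2a1 was not tested.

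Of 6 other genes of the pentose phosphate pathway, 1 was higher and 5 lower (median -0.68 SD), and none separated. Tkt, the transketolase, differed by -2.79e-04 ± 1.32e-04, or -1.43 SD (limma adjusted p = 0.491), and Rpia, which isomerises ribose phosphate, by -9.30e-05 ± 5.06e-05, or -1.24 SD (0.554). Both turned positive under quantile normalization, and Rpia also without the Hamp probe set. Among 7 genes of the opposing route, gluconeogenesis, 2 were higher and 5 lower (median -0.78 SD). Pck2, the mitochondrial phosphoenolpyruvate carboxykinase, read 7.77842, 7.77883, 7.77852 and 7.77850 in iron-deficient livers, against 7.77925, 7.77906, 7.77901 and 7.77969 in control livers. The groups did not overlap, and the difference was -2.70 SD (limma adjusted p = 0.248). Slc37a4, the glucose phosphate carrier of the endoplasmic reticulum, also did not overlap, at -2.29 SD (0.304), but it turned positive under quantile normalization with Hamp.

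Controllers of these genes numbered 14, of which 4 were higher and 10 lower (median -0.85 SD). Usf2, an upstream stimulatory factor that binds E boxes, read 9.15560, 9.15550, 9.15555 and 9.15547 in iron-deficient livers, against 9.15575, 9.15590, 9.15594 and 9.15579 in control livers. Srebf1, the insulin-responsive lipogenic factor, read 11.96362, 11.96347, 11.96352 and 11.96362 in iron-deficient livers, against 11.96384, 11.96369, 11.96376 and 11.96376 in control livers. Neither overlapped, and neither passed, with -4.11 SD for Usf2 (limma adjusted p = 0.127) and -3.03 SD for Srebf1 (0.209). Both turned positive under quantile normalization, Srebf1 with a call (limma adjusted p = 1.16e-12). Without the Hamp probe set in it, the Srebf1 difference was 0.

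The 16 genes raised by carbohydrate feeding divided into 7 higher and 9 lower (median -0.09 SD). Txnip, a thioredoxin-binding protein induced by glucose, was the only one without overlap. It averaged 10.63590 ± 1.05e-04 under the iron-deficient diet and 10.63545 ± 2.97e-04 under the control diet (SD, n = 4 per group), a difference of 2.02 SD (limma adjusted p = 0.350). Gpd1, the glycerol phosphate dehydrogenase, differed by -1.90 SD (0.379) with overlapping groups, and turned positive under quantile normalization with Hamp. Insulin signalling genes were 4 higher and 6 lower of 10 (median -0.45 SD). Igfbp1, which insulin represses and hypoxia induces, did not overlap and had the largest standardised difference of the 74 genes, at 5.35 SD (limma adjusted p = 0.0735). It passed under quantile normalization with and without the Hamp probe set and under median centring (limma adjusted p = 0.00501, 0.0488 and 0.00125). Akt1, the insulin-activated kinase, differed by -1.70 SD (0.419), and its sign turned under both quantile normalizations and under median centring.

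**Figure D4:**
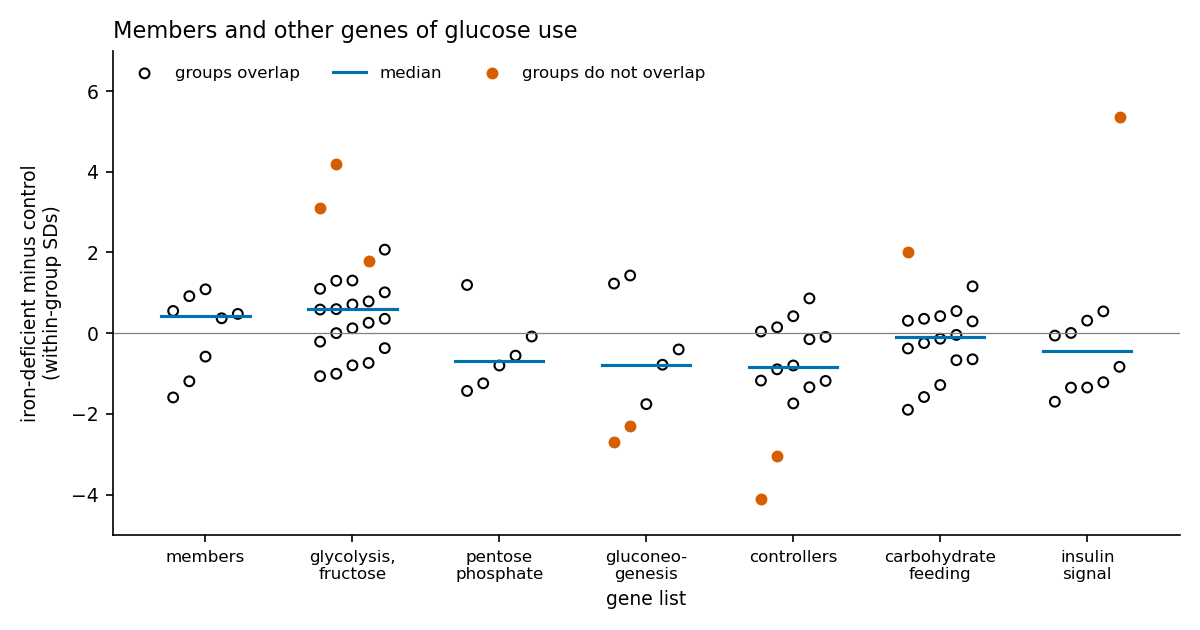
Standardised difference, iron-deficient minus control in within-group SDs, of the 8 member probe sets and of each gene in 6 lists, with filled points where the diet groups do not overlap and bars at the medians. The members lie between -1.59 and 1.09, with no filled point, and Igfbp1 is the highest point at 5.35.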

How the data were processed

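Biotin-labelled cRNA from 2 ug of liver RNA was hybridised to Affymetrix arrays, 1 per liver, per the labels. The authors deposited 1 value per probe set and array on a scale taken to be log2 from its range (5.318 to 16.099, array medians 7.1199 to 7.1207). Summarisation and normalization are not given in the sources used here, and 57 control probe sets were removed, leaving 31042. Of these, 20826 had 1 symbol, 436 several and 9780 none, and 20758 were matched to RefSeq by gene identifier. A gene outside the members was read from its brightest probe set.

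Iron-deficient minus control was fitted with lmFit and eBayes (limma 3.58.1, R 4.3.3) on all 8 arrays, without a block, with Benjamini-Hochberg adjustment over all probe sets and a threshold of 0.05. Correlations were tested by exact permutation of the 8 arrays (numpy 2.4.6). The labels call the arrays biological replicates, and their number limits the precision. No 2 arrays held identical values. In simulated data with the real spread of the 31042 probe sets, 50 were shifted by each of 2, 4, 8 and 16 SD. Of these, limma recovered 12%, 34%, 98% and 100%, with 11 false calls. Recovery depends on how many probe sets are shifted, so it can be lower in the real table, where 10 passed.

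The members and lists were chosen with earlier results of these data known. By rule, all members were named, then, from each list, members past the threshold, or else the 2 largest standardised differences among genes without overlap, or among all where fewer than 2 separated. Mlxipl, Slc2a1 and the genes correlated with Pgd and Pklr fall outside it. Of 82 listed genes, 8 had no probe set of 1 symbol and were not analysed here.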

Additional observations from a re-analysis of the deposited data

Results flagged for a closer look

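Tkt in control livers had 1 value far from the other 3. Control replicate 2 read 11.12782 where the others read 11.12823, 11.12826 and 11.12830, and the gap was 0.870 of the whole range, above Dixon's limit for 4 samples. Among 40 groups of 4 tested, chance marks about 1 in 20. None of the member probe sets was singled out in this way.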

How the results depend on the processing

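Of 120 recomputed member differences, 5 changed sign and 1, that of Slc2a2 after quantile normalization with Hamp taken out, was 0, while the others kept their sign without passing. The sign of Slc2a2 turned under quantile normalization (0.00563, called) and median centring (4.42e-05), and that of Gckr under quantile normalization (-1.53e-04), the same without the Hamp probe set (-7.50e-04) and on leaving out 1 array (-4.16e-06 without iron-deficient replicate 2, to 6.09e-05). Median centring adds 5.06e-05 to every difference, which by its size alone turns Slc2a2. Quantile normalization called 1 member (Slc2a2), 13 of 74 listed genes and 1093 of 31042 probe sets. Without the Hamp probe set these were 0, 1 (Igfbp1) and 83, and under median centring 0, 1 (Igfbp1) and 63. Averaging all probe sets of a gene, each scaled to its own SD, called 9 listed genes. By construction that scaling evens out the variances. The share of all genes called was not counted for this averaging, for quantile normalization or for median centring. The counts of listed genes called there are therefore not read as a result. Over all probe sets, 10 passed as deposited, 1 with a replicate block and 4 to 27 on leaving out 1 array (27 without iron-deficient replicate 3, 4 without iron-deficient replicate 4 or control replicate 3), where no member and no listed gene was called. The numbered replicates did not deviate together (r -0.111, 0.0245, -0.0251 and -0.0773), 1 of 8 arrays, iron-deficient replicate 2, correlated best with its own number, and with the replicate block no member and no listed gene passed. Groups did not overlap for Slc2a2 under quantile normalization and for Khk in the same normalization without the Hamp probe set, 1 member each (exact permutation p = 0.0286, the smallest possible), where none separated as deposited. Khk had an exact permutation p of 0.0571 as deposited, 0.714 under median centring and 1.0 under quantile normalization.

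Among the 12 other named genes, with 180 recomputed differences, 12 turned and 4 newly passed with the same sign. Of those that turned, Srebf1 under quantile normalization also passed. Turned values under quantile normalization were 0.00112 for Akt1, -8.90e-05 for Aldoc, 8.35e-04 for Gpd1, 2.28e-04 for Rpia, 3.00e-04 for Slc37a4, 0.00229 for Srebf1, 3.75e-04 for Tkt and 1.25e-04 for Usf2. Without the Hamp probe set they were 5.40e-04 for Akt1, -1.71e-04 for Aldoc and 1.13e-04 for Rpia, and median centring gave 1.31e-05 for Akt1. Apart from centring and scaling, the cause was not tested. With 4 arrays per diet, shifts of 2 to 4 SD were mostly missed in the simulation. In the real table larger differences also failed to pass, such as 5.35 SD for Igfbp1 and -6.38 SD for Hamp (limma adjusted p = 0.0735 for both).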

Other observations

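The level of Me1 at equal Pgd is given as a description chosen after the values were seen, and the difference between the diets was not tested. Moved along the shared within-diet slope to the mean Pgd level, Me1 ran from 8.5992 to 8.6014 in iron-deficient livers and from 8.6066 to 8.6080 in control livers, with no overlap. For the other Me1 probe set the groups overlapped, from 8.16078 to 8.16182 in iron-deficient livers and from 8.16163 to 8.16210 in control livers. Me1 was picked for its high correlation with Pgd, and the slope came from these same 8 arrays. The move therefore takes out most of the spread within a diet, and the gap on the first probe set is not read as a result. Before the move the groups of that probe set overlapped, at -0.38 SD.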
